A study of Homo sapiens with 9 samples.

Results

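The respiratory chain and the ATP synthase sit in the inner mitochondrial membrane and are built from catalytic core subunits and many small accessory ones. Most of these proteins are encoded in the nucleus, translated in the cytosol and imported, while a few central subunits are encoded and translated inside the mitochondrion. Complex I oxidises NADH, complex II oxidises succinate, complex III passes the electrons to cytochrome c, complex IV (cytochrome c oxidase) hands them to oxygen, and complex V uses the resulting proton gradient to make ATP. In neurons, mRNAs of nuclear-encoded subunits are found in axons as well as in the cell body.

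Here the mRNAs of these nuclear-encoded subunits were followed in SH-SY5Y cells, a human neuroblastoma line, in RNA that came down with antibodies to the axon guidance receptors DCC (a mouse antibody; DCC-IP) or Nrp1 (a rabbit antibody; Nrp1-IP) on magnetic beads, and in RNA of the whole lysate (Input). Each of the 3 groups has 3 libraries, numbered 1 to 3 in the labels, made from cells of a single line with no treatment named and amplified by PCR after reverse transcription. The antibody species differs with the receptor, so receptor and antibody cannot be told apart, and no library made with a control antibody was analysed here. The study's methods describe its experiments in general as done in independent biological replicates. The labels do not say which libraries came from separate cultures, so p-values measure the spread between these libraries, which may in part be technical. The mRNAs were chosen by symbol alone, with no measured value: NDUFA, NDUFB, NDUFC, NDUFS and NDUFV genes, SDHA to SDHD, UQCR genes, CYC1, CYCS, COX4 to COX8 genes and ATP5 genes, without pseudogenes. This gave 84 of the 42785 genes in the count tables, of which 37 belong to complex I, 4 to complex II, 9 to complex III, 15 to complex IV and 18 to complex V, with cytochrome c (CYCS) as the remaining gene. The symbols are older ones: NDUFA4 is counted with complex I by its name although its product is now placed in complex IV. ATP5S and ATP5SL, which are DMAC2L and DMAC2 in later nomenclature, are likewise counted with complex V by name alone. COX4I1 and NDUFAB1 are subunits whose symbols the pattern does not take.

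Between 8838296 and 11055895 reads of a library were counted on genes. Levels are given as CPM (read counts scaled by library size and by TMM factors taken over all 9 libraries). The lowest level read as present was 3 counts. Scaled by library size only, without the TMM factors, 3 counts stood for 0.271 to 0.339 CPM. A single mRNA, MAP1B, took 40.3% to 52.1% of the gene counts in DCC-IP and 1.58% to 2.44% in the other libraries, so shares in DCC-IP are given with and without it. As for the identity of the cells, ISL1, a neuroblastoma transcription factor, had 1833 to 35114 counts, whereas TH was at 0 in all 9 libraries and 10 of 11 markers of noradrenergic neuroblastoma passed 3 counts somewhere. The summed level of these markers ran from 1301 to 4109 CPM in DCC-IP, 1067 to 1398 CPM in Nrp1-IP and 303 to 498 CPM in Input. Of markers of other cell types, all those of blood and endothelium in the files stayed at or under 3 counts, the epithelial ones were at 0 apart from EPCAM with 12 counts in Nrp1-IP 2, and fibroblast markers summed to 1.45 to 9.78 CPM. Of the receptors' own mRNAs, DCC was at 0 in all 9 libraries, and NRP1 was at 0 to 26 counts after DCC pulldown, 36 to 83 after Nrp1 pulldown and 198 to 320 in the lysate. These counts are of mRNA and do not measure the precipitated protein.

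Detection was patchy. Of the 84 mRNAs, 5 (COX6A2, COX7A1, COX7B2, COX8C and ATP5L2) had no count in any library, and NDUFA12, NDUFB3, NDUFV2 and COX6C never passed 3 counts. A further 57 passed 3 counts in some libraries but not in all, and 18 passed it in all 9. COX6A2, COX7A1, COX7B2 and COX8C are forms known from muscle, heart or testis. In libraries 1 to 3, the order kept for all values per library, the mRNAs over 3 counts numbered 26, 36 and 57 after DCC pulldown, 32, 35 and 43 after Nrp1 pulldown and 30, 50 and 61 in the lysate. Library 3 held the most in each group, and these numbers moved with the number of genes having any count, 6652, 9036 and 11259 after DCC pulldown, 9389, 9787 and 12240 after Nrp1 pulldown and 8169, 11613 and 11937 in the lysate. The part of these differences in detection in the results that follow was not tested. After edgeR's filter on low counts (filterByExpr, minimum count 10), 30 of the 84 were tested in Nrp1-IP over DCC-IP, 34 in DCC-IP over Input and 32 in Nrp1-IP over Input. Altogether 38 were tested at least once, 26 in all 3 comparisons, and 46 in none.

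The 4 subunits of complex II, which links the citric acid cycle to the chain, could not be compared at all. They had 77 counts together over 9 libraries and no more than 13 for any of them in a library. SDHD, a membrane anchor of the complex and its mRNA with most counts, had 0, 2 and 4 counts after DCC pulldown, 0, 12 and 0 after Nrp1 pulldown and 1, 3 and 5 in the lysate. At this depth no difference was detectable for them.

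Together the 84 mRNAs held 0.0607%, 0.0483% and 0.0602% of the gene counts after DCC pulldown, 0.151%, 0.123% and 0.137% after Nrp1 pulldown and 0.184%, 0.154% and 0.112% in the lysate. The mean share was 0.0564% ± 0.00702 (SD, n = 3) after DCC pulldown, 0.137% ± 0.0141 after Nrp1 pulldown and 0.150% ± 0.0360 in the lysate. DCC-IP lay below both other groups without overlap, and Nrp1-IP and Input overlapped. The Wilson 95% interval of any such share was at most 0.00514 percentage points wide, which covers counting error only. With MAP1B taken out of the denominator the means became 0.107% ± 0.0114 after DCC pulldown, 0.140% ± 0.0146 after Nrp1 pulldown and 0.153% ± 0.0370 in the lysate. DCC-IP then overlapped Input, whose lowest library was at 0.114%, and still lay below Nrp1-IP, whose lowest was at 0.126%.

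COX7B and NDUFV3 carried most of these counts. Of 105352 counts on the 84 mRNAs over all libraries, COX7B had 45855 (43.5%) and NDUFV3 24240 (23.0%), followed by NDUFS1 with 6739 and NDUFB5 with 5353. Counts are not divided by transcript length, so this order says where the reads fell and does not rank the mRNAs by level. The summed level of the 84 was 538 ± 189 CPM in DCC-IP, 1212 ± 139 CPM in Nrp1-IP and 1875 ± 643 CPM in Input (SD, n = 3 each). Without COX7B and NDUFV3 it was 377 ± 135, 304 ± 30.0 and 488 ± 55.0 CPM, and DCC-IP was then no longer the group with the lowest mean.

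**Figure D1:**
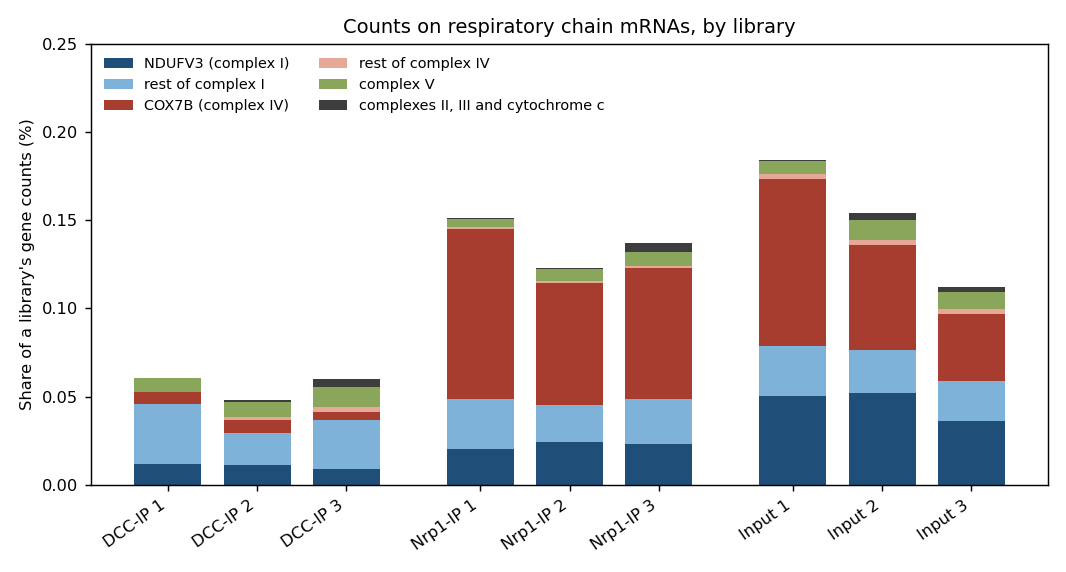
Share of each library's gene counts (percent, vertical axis) that fell on the 84 respiratory chain mRNAs, as stacked bars for the 9 libraries, coloured by complex with NDUFV3 and COX7B drawn apart. The COX7B block is a thin band in the 3 DCC-IP libraries (465 to 770 counts) and the tallest block in the Nrp1-IP libraries (6974 to 9374 counts).

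COX7B had the smallest adjusted p of these mRNAs between the receptors. It encodes a small accessory subunit of cytochrome c oxidase that spans the inner membrane. It had 733, 770 and 465 counts after DCC pulldown, 9374, 6974 and 8111 after Nrp1 pulldown and 10134, 5957 and 3337 in the lysate. All 3 DCC-IP libraries lay far below the other 6, and the ranges of Nrp1-IP and Input overlapped. Its mean level was 58.9 ± 25.5 CPM in DCC-IP, 709 ± 146 CPM in Nrp1-IP and 812 ± 453 CPM in Input (SD, n = 3 each). In the quasi-likelihood test of edgeR, its p adjusted (Benjamini-Hochberg) over all genes of the comparison, COX7B was 10.8-fold higher in Nrp1-IP than in DCC-IP (log2 fold change 3.44, SE 0.44, adjusted p = 0.00335). It passed the threshold of 0.05 in each of the 6 fits that left out a library (3.41 to 3.95 on the log2 scale) and in each of the 10 other settings tried. Against Input it was 13.1-fold lower in DCC-IP (log2 fold change -3.71, SE 0.54, adjusted p = 0.00884). That call was lost without DCC-IP 1 (adjusted p = 0.0888), DCC-IP 2 (0.112) or Input 1 (0.0605), with the fold change between -4.07 and -3.06 in all 6 such fits. Between Nrp1-IP and Input the log2 fold change was -0.12 (SE 0.43, adjusted p = 0.909) and turned positive without Input 1, with the replicate block or when libraries were scaled by size only.

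NDUFA3, an accessory subunit of the membrane arm of complex I, went the other way between the receptors. It had 674, 277 and 216 counts after DCC pulldown, 15, 26 and 19 after Nrp1 pulldown and 182, 78 and 41 in the lysate. Nrp1-IP lay below both other groups without overlap, and DCC-IP and Input overlapped once scaled to CPM. The means were 37.8 ± 33.5 CPM in DCC-IP, 1.74 ± 0.566 CPM in Nrp1-IP and 12.6 ± 9.61 CPM in Input. NDUFA3 was 22.9-fold lower in Nrp1-IP than in DCC-IP (log2 fold change -4.52, SE 0.86, adjusted p = 0.0207). The call was lost when Nrp1-IP 1 (adjusted p = 0.216), Nrp1-IP 2 (0.113) or Nrp1-IP 3 (0.116) was left out, although the fold change stayed between -4.82 and -3.38. Against Input the log2 fold change was 1.58 (SE 0.86, adjusted p = 0.334) in DCC-IP and -2.79 (SE 0.73, adjusted p = 0.0717) in Nrp1-IP. In Nrp1-IP over Input it was called in 4 of 10 other settings, with adjusted p from 0.00185 to 0.156. It was also called there in 1 of 6 fits that left out a library.

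NDUFV3 encodes an accessory subunit at the NADH-oxidising end of complex I. It had 1290, 1235 and 932 counts after DCC pulldown, 1976, 2454 and 2498 after Nrp1 pulldown and 5399, 5246 and 3210 in the lysate. The 3 groups did not overlap, with DCC-IP lowest and Input highest. Its means were 103 ± 40.9, 199 ± 23.1 and 575 ± 153 CPM. Against Input NDUFV3 was 5.30-fold lower in DCC-IP (log2 fold change -2.41, SE 0.42, adjusted p = 0.0178) and 2.71-fold lower in Nrp1-IP (log2 fold change -1.44, SE 0.30, adjusted p = 0.0395). Both calls were held only in the fit without Input 3 among the 6 that left out a library, with adjusted p up to 0.204 in DCC-IP and up to 0.219 in Nrp1-IP. The first was also lost with MAP1B removed (adjusted p = 0.0756) and the other in a fit of all 9 libraries (0.0926). Between the receptors the log2 fold change was 0.81 (SE 0.41, adjusted p = 0.358).

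COX8A, a small accessory subunit of cytochrome c oxidase and the form found in most tissues, was low in both pulldowns. It had 6, 53 and 18 counts after DCC pulldown, 9, 7 and 7 after Nrp1 pulldown and 125, 142 and 89 in the lysate. Input lay above both pulldowns without overlap, and the pulldowns overlapped each other. COX8A was 20.3-fold lower in Nrp1-IP than in Input (log2 fold change -4.34, SE 0.57, adjusted p = 0.0119), a call lost without any of the Nrp1-IP libraries (adjusted p = 0.0910 to 0.117) and in the fit of all 9 libraries (0.0542). In DCC-IP the log2 fold change over Input was -2.64 (SE 1.06, adjusted p = 0.189). It did not pass the filter on low counts between the receptors.

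**Figure D2:**
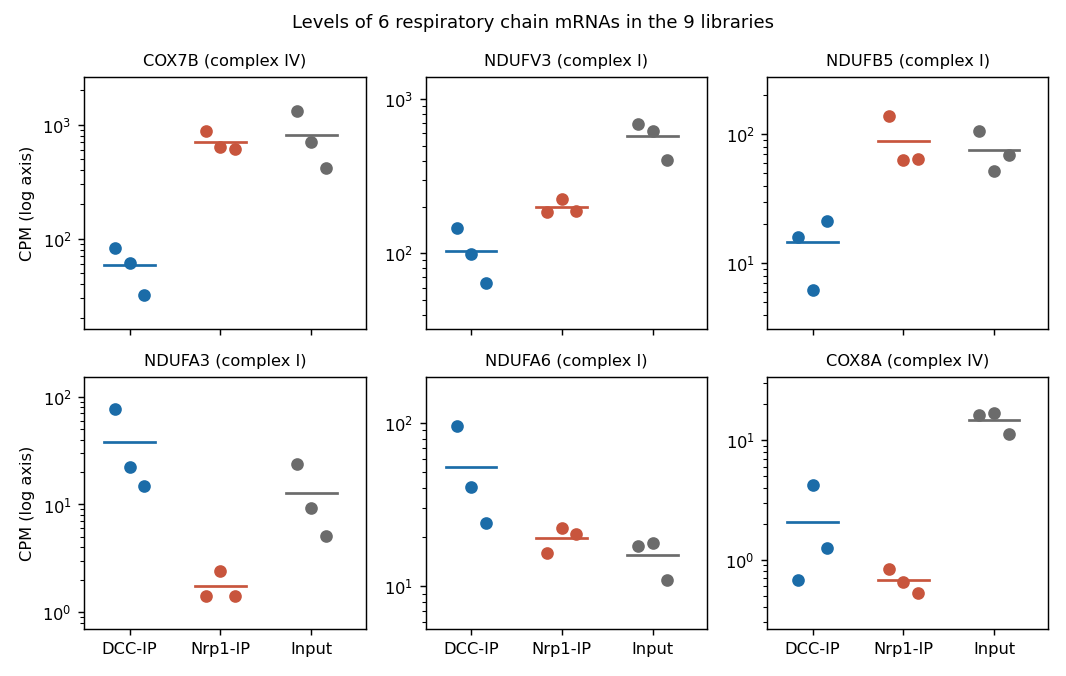
CPM on log axes of 6 respiratory chain mRNAs in the 3 DCC-IP, 3 Nrp1-IP and 3 Input libraries, with a point for each library and a bar at the group mean. COX7B was lowest in DCC-IP (58.9 ± 25.5 CPM), NDUFA3 was lowest in Nrp1-IP (1.74 ± 0.566 CPM) and COX8A was highest in Input.

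Across the list, few mRNAs passed the test. Between the receptors, 1 of the 30 tested (COX7B) was called higher in Nrp1-IP, where 2.56% of all 6439 genes tested were, and 1 (NDUFA3) was called lower, where 1.09% were. Of the 30, 8 had an unadjusted p under 0.05. The share of all genes with such a p was not taken, here or in the comparisons below. These counts therefore do not set the mRNAs apart from other genes. For DCC-IP over Input, 0 of 34 were called higher, against 1.46% of 6223 genes, and 2 (COX7B and NDUFV3) were called lower, against 3.52%. Of the 34, 8 had an unadjusted p under 0.05. DESeq2 called 5 of them in either direction, and 972 of all 6223 genes. For Nrp1-IP over Input, 0 of 32 were called higher, against 1.94% of 6501 genes, and 2 (NDUFV3 and COX8A) were called lower, against 3.03%. Of the 32, 6 had an unadjusted p under 0.05. DESeq2 again called 5, and 949 of all 6501 genes. The 3 comparisons share libraries and are not independent of each other.

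The median log2 fold change of the mRNAs tested was -0.98 in Nrp1-IP over DCC-IP, where it was -0.27 over all genes tested, with 21 of 30 below 0. It was -0.67 in DCC-IP over Input (all genes 0.16), with 20 of 34 below 0, and -0.71 in Nrp1-IP over Input (all genes 0.06), with 24 of 32 below 0. Other scalings moved the median of all genes, by 0.16 to 0.17 between the receptors, by -0.16 to 0.32 in DCC-IP over Input and by -0.19 to 0.38 in Nrp1-IP over Input. The median of the mRNAs minus that of all genes was -0.71, -0.83 and -0.77 in the same order under the TMM scaling, and -0.86 to -0.71 under the other scalings. In DCC-IP over Input it was -0.47 with the replicate block, -0.44 without DCC-IP 2 and 0.02 without Input 2. With only genes of at least 10 counts in every library, the median of the 14 mRNAs left in DCC-IP over Input was 0.40, beside 0.43 over all genes. Without Input 2 the median there was 0.25, beside 0.23 over all genes.

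The groups did not overlap for 12 of 30 mRNAs between the receptors (40%, against 26.5% of all genes tested), for 12 of 34 in DCC-IP over Input (35.3%, against 33.3%) and for 10 of 32 in Nrp1-IP over Input (31.2%, against 31.5%). In both comparisons with Input these shares were close to those of all genes. Between the receptors, NDUFV3, NDUFB5, NDUFC2, COX7B, COX6A1, ATP5J and ATP5S lay wholly higher in Nrp1-IP, and NDUFA3, NDUFA6, NDUFB4, NDUFB9 and COX6B1 wholly higher in DCC-IP.

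**Figure D3:**
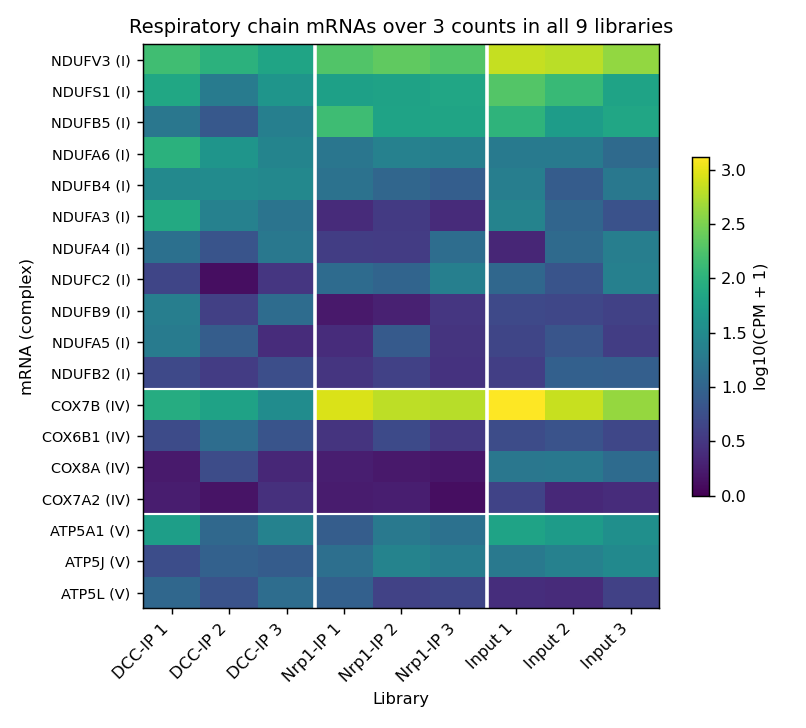
Levels, as log10(CPM + 1), of the 18 respiratory chain mRNAs that passed 3 counts in all 9 libraries (rows, grouped by complex) in each of the 9 libraries (columns). COX7B and NDUFV3 stand out in Nrp1-IP and Input, and 11 of the 18 rows belong to complex I.

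Within complex I, the mRNAs did not move as a block. In Nrp1-IP over DCC-IP, 15 of its 37 were tested, with a median log2 fold change of -1.38 and a range from -4.52 (NDUFA3) to 2.74 (NDUFC2). In DCC-IP over Input 16 were tested (median 0.17, 9 above 0 and 7 below), and in Nrp1-IP over Input 15 (median -0.85, range -3.27 to 0.94). Only NDUFA3 and NDUFV3 were called in the quasi-likelihood test, as described above.

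NDUFB5, an accessory subunit of the membrane arm, had the smallest p of those not called between the receptors in the quasi-likelihood test. It had 142, 77 and 308 counts after DCC pulldown, 1480, 687 and 861 after Nrp1 pulldown and 819, 432 and 547 in the lysate. DCC-IP lay below both other groups, which overlapped. Its log2 fold change was 2.50 (SE 0.62, adjusted p = 0.0595) in Nrp1-IP over DCC-IP and -2.23 (SE 0.70, adjusted p = 0.101) in DCC-IP over Input. With the replicate number as a block, the latter was -2.37 and passed the threshold (adjusted p = 0.0389). Between the receptors NDUFB5 was called in 6 of 10 other settings, with adjusted p from 0.00268 (DESeq2) to 0.0863 (library size only). In DCC-IP over Input it was called in 4 of 10, with adjusted p from 0.0132 to 0.277. NDUFC2, another membrane-arm subunit, had 31, 4 and 30 counts after DCC pulldown, 119, 100 and 278 after Nrp1 pulldown and 78, 45 and 172 in the lysate, again with DCC-IP lowest, but its log2 fold change of 2.74 between the receptors came with an SE of 1.02 (adjusted p = 0.202). It was called there in 1 of 9 other settings (DESeq2, adjusted p = 0.0318).

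Several complex I mRNAs had their highest mean level in DCC-IP, without a call in the quasi-likelihood test. NDUFA6, an accessory subunit of the peripheral arm, had 846, 509 and 351 counts after DCC pulldown, 170, 246 and 279 after Nrp1 pulldown and 136, 154 and 87 in the lysate. Its DCC-IP libraries lay above all others, with a log2 fold change of 1.80 (SE 0.67, adjusted p = 0.156) over Input and -1.54 (SE 0.61, adjusted p = 0.230) in Nrp1-IP over DCC-IP. Over Input it was called in 1 of 10 other settings, with at least 10 counts in every library (adjusted p = 0.0322). NDUFB4, a membrane-arm subunit, had 254, 390 and 394 counts in DCC-IP against 150, 106 and 100 in Nrp1-IP (log2 fold change -1.65, SE 0.62, adjusted p = 0.203). NDUFB9, also of the membrane arm, had 179, 36 and 168 counts after DCC pulldown, 7, 10 and 28 after Nrp1 pulldown and 30, 30 and 24 in the lysate, with a log2 fold change of -3.29 (SE 1.07, adjusted p = 0.142) between the receptors. There 2 of 9 other settings called it, DESeq2 (adjusted p = 0.0128) and the likelihood ratio test (0.0442).

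Core subunits of complex I were counted unevenly. NDUFS1, which carries iron-sulphur clusters, had 634, 235 and 600 counts after DCC pulldown, 626, 667 and 915 after Nrp1 pulldown and 1494, 1061 and 507 in the lysate. It was called in no main fit. Its log2 fold change was 0.42 between the receptors (adjusted p = 0.785), -1.47 for DCC-IP against Input (adjusted p = 0.219) and -0.94 for Nrp1-IP against Input (adjusted p = 0.265). In this last comparison it was called in 1 of 6 fits that left out a library, without Input 3 (adjusted p = 0.0362). NDUFV1, which binds NADH, had 0, 143 and 31 counts after DCC pulldown, 35, 28 and 8 after Nrp1 pulldown and 0, 0 and 5 in the lysate, and NDUFV2, its partner, never passed 3 counts.

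Complex III, which has 9 mRNAs here, gave 1 to 3 tested mRNAs per comparison and no call in the quasi-likelihood test. UQCR11, a small accessory subunit and its mRNA with most counts (487), had 9, 81 and 133 counts after DCC pulldown, 3, 1 and 70 after Nrp1 pulldown and 27, 63 and 100 in the lysate. The 3 groups overlapped, with a log2 fold change of -1.76 between the receptors (adjusted p = 0.661), -0.25 in DCC-IP over Input and -1.99 in Nrp1-IP over Input. CYCS, the mobile electron carrier, was mainly a library 3 signal, with 6, 2 and 238 counts after DCC pulldown, 53, 4 and 455 after Nrp1 pulldown and 1, 1 and 83 in the lysate. Its log2 fold change between the receptors, 1.07 (SE 1.69, adjusted p = 0.841), became -1.21 without Nrp1-IP 3.

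The tested mRNAs of complex IV lay mostly below Input. Of its 15 mRNAs 8 were tested in DCC-IP over Input, with a median log2 fold change of -2.07 and 7 of 8 below 0, and 7 in Nrp1-IP over Input, with a median of -1.61 and 7 of 7 below 0. In Nrp1-IP over Input, COX8A and COX7A2 (8, 9 and 4 counts against 25, 11 and 12) passed the filter on low counts only through Input. The filter thus in part fixed these directions. Only COX7B and COX8A were called in the quasi-likelihood test, each in 1 of these. Between the receptors 4 were tested, with a median of 0.36. Most of the others had few counts. COX5A, which faces the matrix, had 0, 20 and 39 counts after DCC pulldown, 9, 2 and 14 after Nrp1 pulldown and 24, 46 and 20 in the lysate, and COX6A1 had 1, 16 and 1, then 20, 38 and 23, then 26, 19 and 19. COX6B1, which faces the space between the membranes, was the exception in direction, with 37, 150 and 78 counts after DCC pulldown, 21, 44 and 30 after Nrp1 pulldown and 33, 44 and 29 in the lysate, and a log2 fold change of 0.89 in DCC-IP over Input (adjusted p = 0.665).

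Complex V had no call in the quasi-likelihood test of any comparison, although ATP5A1, ATP5S and ATP5L were called under other settings. ATP5A1, which encodes the alpha subunit of the catalytic head, had 483, 130 and 333 counts after DCC pulldown, 77, 188 and 179 after Nrp1 pulldown and 486, 421 and 274 in the lysate. Input lay above Nrp1-IP without overlap, with a log2 fold change of -1.88 (SE 0.48, adjusted p = 0.0672), and Input overlapped DCC-IP. In Nrp1-IP over Input ATP5A1 was called in 5 of 10 other settings, with adjusted p from 0.000794 (DESeq2) to 0.231 (all 9 libraries). ATP5L, subunit g of the membrane part, ran the other way, with 89, 66 and 171 counts after DCC pulldown, 85, 34 and 47 after Nrp1 pulldown and 12, 12 and 24 in the lysate. Both pulldowns lay above Input, with log2 fold changes of 2.31 (SE 1.02, adjusted p = 0.228) and 1.34 (SE 0.75, adjusted p = 0.355). For DCC-IP against Input it was called in 1 of 10 other settings, with at least 10 counts in every library (adjusted p = 0.0171). ATP5S, with 1, 25 and 19 counts after DCC pulldown, 59, 73 and 98 after Nrp1 pulldown and 109, 136 and 97 in the lysate, lay lower after either pulldown without overlap. Its log2 fold change over Input was -3.37 in DCC-IP (adjusted p = 0.142) and -1.03 in Nrp1-IP (adjusted p = 0.226), and DESeq2 called both (adjusted p = 0.00611 and 0.0420). ATP5J2, subunit f, had 1, 31 and 14 counts after DCC pulldown, 15, 13 and 15 after Nrp1 pulldown and 5, 7 and 3 in the lysate, with a log2 fold change of 1.09 (SE 0.98, adjusted p = 0.582) in Nrp1-IP over Input. Over the complex the medians were -0.79 between the receptors (8 tested), -0.29 in DCC-IP over Input (7 tested) and -0.37 in Nrp1-IP over Input (8 tested).

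**Figure D4:**
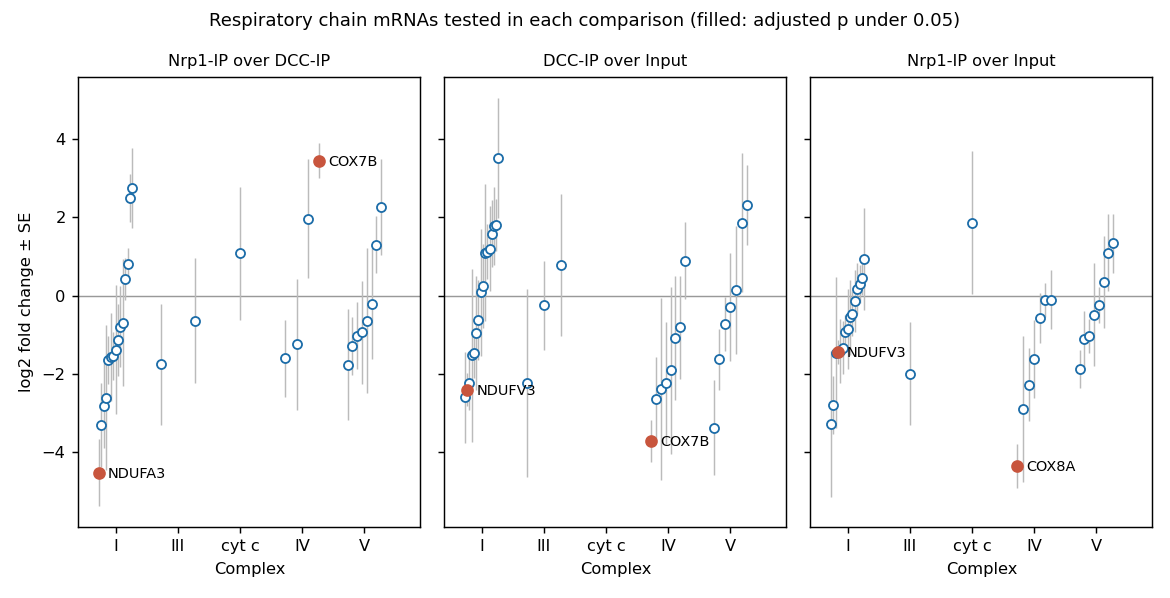
Log2 fold changes (points, with SE as bars) of the respiratory chain mRNAs tested in each of the 3 comparisons, set out by complex, with filled points for adjusted p under 0.05 in edgeR's quasi-likelihood test and no complex II mRNA tested. In complex IV, 7 of 8 lie below 0 in DCC-IP over Input and 7 of 7 in Nrp1-IP over Input, whereas complex I spreads to both sides of 0. Some complex IV mRNAs passed the filter on low counts only through Input.

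The subunits that mitochondria encode themselves were set beside these. The 13 mitochondrial mRNAs, which are translated inside the organelle, summed to 0.339 to 77.2 CPM in DCC-IP, 0.748 to 31.1 CPM in Nrp1-IP and 63.1 to 856 CPM in Input. Each group thus spread over more than an order of magnitude, with library 3 highest in both pulldowns. Of the 11 tested in each comparison with Input, all 11 had log2 fold changes below 0, with medians of -4.81 in DCC-IP and -5.62 in Nrp1-IP. Between the receptors only 2 of the 13 passed the filter on low counts. Others, such as MT-ATP6 and MT-ATP8, passed it only through their Input counts. The filter thus in part fixed the direction and size of these medians. MT-CO3, a core subunit of complex IV, passed the test in DCC-IP over Input (0, 0 and 9 counts against 72, 296 and 815, log2 fold change -7.47, SE 1.77, adjusted p = 0.0488) and in Nrp1-IP over Input (1, 7 and 23 counts, log2 fold change -5.82, SE 1.23, adjusted p = 0.0412). MT-ATP6, a membrane subunit of complex V, passed it in Nrp1-IP over Input (1, 2 and 10 counts against 131, 148 and 443, log2 fold change -6.33, SE 0.997, adjusted p = 0.0181). In fits that left out a library, these calls were kept in 1, 1 and 3 of 6, respectively. The nuclear-encoded mRNAs had medians of -0.67 and -0.71 in the same comparisons, but no test was made between the lists.

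Of the 47 assembly factors listed, which build the complexes without staying in them, 42 are in the files and 19 to 22 were tested. COA6, a copper-handling factor of complex IV, was called lower in Nrp1-IP than in Input (8, 31 and 19 counts against 83, 96 and 233, log2 fold change -3.31, SE 0.76, adjusted p = 0.0494), and was called in none of the 6 fits that left out a library. The medians of the assembly factors were -0.82 between the receptors, 0.24 in DCC-IP over Input and 0.03 in Nrp1-IP over Input. Of 10 regulators of nuclear-encoded subunits, such as NRF1 and GABPA, 6 or 7 were tested and 0 called, and of 7 structural subunits outside the symbol pattern 2 or 3 were tested and 0 called. COX4I1, a widely expressed subunit of complex IV, had 0, 0 and 19 counts in DCC-IP, 0 in all Nrp1-IP libraries and 0, 15 and 17 in Input. With the replicate number as a block, the genes of these 4 lists called in DCC-IP over Input numbered 5 rather than 1, while all genes called numbered 715 rather than 310.

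What the mRNAs share beyond their names was looked for in their promoters, which this assay does not measure. RefSeq promoters of GRCh38.p14, a later build than the hg19 named for the counts, were matched by symbol for 68 of the 84 and searched on both strands from 250 bases before to 50 bases after the start of the gene. GCGCANGCG, taken for the NRF1 motif, was in 21 of 68 (30.9%, against 8.05% of 27305 promoters), CCGGAAG, for the GABPA motif, in 18 (26.5%, against 10.7%), and GCCATNTT, for the YY1 motif, in 22 (32.4%, against 6.82%). These are factors known to control such genes. Of the 31 tested mRNAs that matched, 9, 10 and 10 held the respective letters, none of which overlap in the promoters shown. The promoters of the 4 called mRNAs are shown here from 220 bases before the start to 30 after it, 5′ to 3′ on the plus strand, with motif letters in capitals, since these 4 differ in the motifs they hold: COX7B (chrX:77899248-77899497) has a YY1 match near its start, NDUFA3 (chr19:54102635-54102884) has 2 NRF1 matches and a YY1 match, NDUFV3 (chr21:42893089-42893338) has none, and COX8A (chr11:63974400-63974649) has a GABPA and a YY1 match. A match is a description of these letters and not a binding site.
COX7B: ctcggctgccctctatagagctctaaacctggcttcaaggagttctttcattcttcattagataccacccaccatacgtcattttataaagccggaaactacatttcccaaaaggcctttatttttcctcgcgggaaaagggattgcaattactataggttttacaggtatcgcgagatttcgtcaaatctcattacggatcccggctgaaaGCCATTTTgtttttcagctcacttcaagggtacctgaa
NDUFA3: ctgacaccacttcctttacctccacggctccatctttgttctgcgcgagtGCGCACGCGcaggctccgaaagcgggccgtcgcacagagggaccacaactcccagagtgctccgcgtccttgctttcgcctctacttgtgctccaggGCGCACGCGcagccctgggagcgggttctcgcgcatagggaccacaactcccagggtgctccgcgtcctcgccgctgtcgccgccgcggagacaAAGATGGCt
NDUFV3: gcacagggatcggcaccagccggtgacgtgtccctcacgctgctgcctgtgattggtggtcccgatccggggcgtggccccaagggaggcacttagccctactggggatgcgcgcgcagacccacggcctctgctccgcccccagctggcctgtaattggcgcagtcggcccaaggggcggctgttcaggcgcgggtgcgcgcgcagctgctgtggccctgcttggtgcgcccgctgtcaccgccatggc
COX8A: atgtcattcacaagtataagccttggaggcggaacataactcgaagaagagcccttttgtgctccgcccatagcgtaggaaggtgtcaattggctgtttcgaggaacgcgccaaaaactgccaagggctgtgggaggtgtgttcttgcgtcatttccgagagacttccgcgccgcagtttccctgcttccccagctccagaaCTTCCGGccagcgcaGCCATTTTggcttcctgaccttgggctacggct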

How the data were processed

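The 9 libraries hold RNA from SH-SY5Y cells, 3 each from DCC-IP, Nrp1-IP and Input. Per the labels, the authors used HISAT2 2.1.0, hg19 and HTSeq 0.11.0, and the deposited values are raw counts per gene symbol, without normalization. Annotation and strand setting are not given in the sources used here, so reads of overlapping or antisense genes cannot be told apart. HTSeq's 5 summary lines were left out: 48.7% to 55.8% of the reads fell on no feature and 2.83% to 3.83% aligned to more than 1 place. Many of these genes have processed pseudogenes. The 5 that the symbol pattern names had 72 counts in all, and adding them changed no call. Reads shared with other copies were not counted here.

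Pairs of groups were compared on their 6 libraries with edgeR 4.0.16 (R 4.3.3): filterByExpr (minimum count 10), TMM, glmQLFit and glmQLFTest over the whole table, called at a Benjamini-Hochberg adjusted p under 0.05. SE is the size of the log2 fold change divided by the square root of F. CPM are counts divided by the library's gene counts and its TMM factor. Gene counts of 8838296 to 11055895 put 3 counts at 0.271 to 0.339 CPM when the TMM factor was left out. Same-numbered DCC-IP and Input libraries deviated together from their group means (correlations across genes of 0.119, 0.194 and 0.447). Those with unlike numbers ranged from -0.328 to 0.151, an overlap that leaves the pairing uncertain. Between the receptors, same-numbered libraries correlated at 0.0844 to 0.358, all above the range for unlike numbers (-0.195 to 0.0671). The main fits had no block, so their p-values do not use this possible pairing in any comparison.

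Alternatives were RLE size factors, library size only, DESeq2 1.42.0, the likelihood ratio test, leaving the filter out, a filter of at least 10 counts in each library, a fit of all 9 libraries, the replicate block, MAP1B left out, pseudogene counts added, and each library left out. Named are mRNAs called in any comparison, the 3 with the smallest p in each direction per comparison, the one with most counts per complex, and genes of other lists where called. Of the mRNAs under this rule, 1 is not reported here. COX5A, COX6A1, COX6B1, COX4I1, ATP5S, NDUFS1, NDUFV1 and NDUFV2 were named after their values were seen. The members and gene lists were chosen with earlier results of these data known. Tables and figures were made with Python 3.11.15, numpy 2.4.6, pandas 2.3.3 and matplotlib 3.10.9.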

Additional observations from a re-analysis of the deposited data

Results flagged for a closer look

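The effect of the pulldown over Input differed between the receptors for 2 of the respiratory chain mRNAs, as tested by the direct comparison of Nrp1-IP with DCC-IP in edgeR's quasi-likelihood test: COX7B, with a log2 fold change of 3.44 (adjusted p = 0.00335), and NDUFA3, with -4.52 (adjusted p = 0.0207). Groups of 3 libraries were too small to be searched for libraries far from the others.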

How the results depend on the processing

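Depth limited the list, since 46 of the 84 mRNAs passed the filter on low counts in no comparison. Among the mRNAs named, 585 of the values under other settings kept direction and side of the threshold, 29 gained a call, 23 lost one and 19 changed sign. The number of respiratory chain mRNAs called between the receptors (2) was 5 with DESeq2 and 4 with the likelihood ratio test. All genes called there rose as well, from 235 to 705 and 488 of 6439. In DCC-IP over Input (2) the number of these mRNAs called was 5 with DESeq2, 5 with at least 10 counts in every library, 4 with all 9 libraries and 1 without MAP1B. All genes called in these 4 settings were 972 of 6223, 805 of 2634, 780 of 7628 and 73 of 5964, against 310 of 6223 in the main fit. In Nrp1-IP over Input (2) the number of these mRNAs called was 5 with DESeq2, 4 with the likelihood ratio test, 7 with no filter and 0 with all 9 libraries. All genes called were then 949 of 6501, 711 of 6501, 882 of 16456 and 125 of 7628, against 323 of 6501 in the main fit. Leaving out a library gave 1 to 3, 0 to 2 and 0 to 5 calls among these mRNAs. It was 0 without DCC-IP 1, DCC-IP 2 or Input 1 in DCC-IP over Input, and 0 without any Nrp1-IP library in Nrp1-IP over Input. All genes called in those fits numbered 0, 1 and 31, and 0, 7 and 7. The causes were not tested.

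Of the other pathway genes, 0 were called between the receptors, against 4 with DESeq2, 3 with the likelihood ratio test, 3 with at least 10 counts in every library, 2 with all 9 libraries and 1 with library size only, no filter or the replicate block. All genes called there were 459 with at least 10 counts, 278 with all 9 libraries, 254 with library size only and 484 with no filter. In DCC-IP over Input (1) the number was 9 with DESeq2, 8 with no filter, 5 with the likelihood ratio test, all 9 libraries or the replicate block, 3 with at least 10 counts, and 0 with library size only or without MAP1B. All genes called there were 449 with no filter, 645 with the likelihood ratio test and 308 with library size only. In Nrp1-IP over Input (3) the number of other pathway genes called was 12 with DESeq2, the likelihood ratio test or the replicate block, 15 with no filter and 0 with all 9 libraries. Leaving out a library gave 0 to 2, 0 to 7 and 0 to 3.

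With the replicate block, 3 respiratory chain mRNAs were called between the receptors (NDUFB5 being added, adjusted p = 0.0282), 3 in DCC-IP over Input and 2 in Nrp1-IP over Input. Of all genes, 369, 715 and 556 were called with the block, against 235, 310 and 323 in the main fits. Same-numbered libraries correlated at 0.104, 0.0844 and 0.358 between the receptors and at 0.238, -0.00267 and 0.386 in Nrp1-IP over Input. Libraries of unlike numbers ranged from -0.195 to 0.0671 and from -0.397 to 0.171, so the 2 kinds overlapped only in the latter. No main fit treated the numbers as pairing.

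The median in DCC-IP over Input (-0.67) was 0.40 with at least 10 counts in every library, and -0.87 to 0.25 when a library was left out, above 0 only without Input 2. In the other comparisons it was then -1.27 to -0.29 between the receptors and -1.16 to -0.62 in Nrp1-IP over Input. The share of gene counts in DCC-IP was 0.107% without MAP1B. Without a library, shares were 0.0543% to 0.0605% in DCC-IP, 0.130% to 0.144% in Nrp1-IP and 0.133% to 0.169% in Input.

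None of the log2 fold changes that changed sign had been called. ATP5J2 between the receptors was 0.043 with RLE factors or DESeq2, 0.095 with no filter, 0.058 with all 9 libraries, 0.50 with the block, 0.083 without MAP1B and -0.44 to 1.16 with a library left out, and CYCS was then -1.21 to 5.27. In DCC-IP over Input, leaving out a library gave -1.34 to 0.14 for ATP5A1 and -0.75 to 0.22 for UQCR11, which was 0.062 with library size only. UQCR11 was 0.22 without DCC-IP 1 and 0.21 without Input 3. In Nrp1-IP over Input, COX7B was 0.32 with library size only, 0.022 with the block and -0.58 to 0.30 with a library left out. Leaving out a library there gave -0.19 to 0.54 for NDUFB5, -0.25 to 0.77 for NDUFC2 and -0.43 to 6.56 for CYCS, where the lowest value came without Nrp1-IP 1 for NDUFB5 and without Nrp1-IP 3 for NDUFC2 and CYCS.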
